A study of Mus musculus with 864 samples.

Results

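Cntnap1, Cntnap2, Cntn1, Cntn2, Nfasc and Ank3 encode proteins that axons place at and beside the node of Ranvier. They were chosen by name and not by a rule on measured values, but with earlier results of these data known. They are 6 of the 23281 genes in a single-cell RNA-seq table of mouse lumbar dorsal root ganglion cells. All 6 were present as 1 entry each and all 6 passed the filter on low values used in the test of neuron classes. They were described over 694 of the 799 wells labelled as holding a single cell, those with 1000 or more genes above 0.

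The cells came from C57/Bl6 mice of 6 to 8 weeks, with no genotype or treatment in the labels. For each dissection 6 ganglia of levels L4 to L6 were taken, dissociated with enzymes and enriched on Percoll, and cells were picked by hand into plates. Picking took place in session A (male and female mice, room temperature), session B (male, room temperature) and session C (male and female, cooled stage), which gives 5 preparations, numbered 1 (A, male), 2 (A, female), 3 (B, male), 4 (C, male) and 5 (C, female). The labels name no animals, so the preparation is the replicate, although some preparations shared a session. P-values for classes measure only how class differences varied between preparations. P-values by session measure only the spread between preparations. Both also draw on the spread of other genes.

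In a myelinated axon the node carries voltage-gated sodium channels and is flanked by the paranode, where the myelin loops attach to the axon, and then by the juxtaparanode, which holds potassium channels under the myelin. Unmyelinated axons have no nodes, although every neuron has an axon initial segment built with many of the same proteins. In the dorsal root ganglion the large neurofilament-rich neurons have myelinated axons, while most small neurons have unmyelinated ones.

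Cntnap1 encodes Caspr and Cntn1 encodes contactin-1, which together form the axonal side of the paranodal junction. Cntnap2 encodes Caspr2 and Cntn2 encodes contactin-2 (TAG-1), which together hold potassium channels at the juxtaparanode. Nfasc encodes neurofascin, whose neuronal form lies at the node and initial segment and whose glial form lies on the paranodal loops. Ank3 encodes ankyrin-G, the scaffold that binds sodium channels and neurofascin at the node and initial segment. The values are per gene and come from tags at the start of transcripts, so forms of neurofascin or ankyrin-G are not told apart.

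The RefSeq promoter table held here, of build GRCm38.p6, had entries for 4 of the 6 genes: Cntnap2, Cntn1, Cntn2 and Nfasc. The 250 bases before the first listed start are shown on the gene's strand because the libraries read the starts of transcripts. The data themselves were mapped to mm9, and these positions are not positions of the data. Capitals mark matches to the GC box (GGGCGG) and the Runx core (TGTGGT), both searched on both strands.
Cntnap2 (chr6:45059811-45060060, + strand): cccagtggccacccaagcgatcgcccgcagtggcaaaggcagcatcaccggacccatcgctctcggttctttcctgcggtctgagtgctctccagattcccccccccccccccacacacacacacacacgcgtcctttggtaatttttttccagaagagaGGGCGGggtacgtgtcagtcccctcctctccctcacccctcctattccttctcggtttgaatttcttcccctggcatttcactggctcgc
Cntn1 (chr15:92050915-92051164, + strand): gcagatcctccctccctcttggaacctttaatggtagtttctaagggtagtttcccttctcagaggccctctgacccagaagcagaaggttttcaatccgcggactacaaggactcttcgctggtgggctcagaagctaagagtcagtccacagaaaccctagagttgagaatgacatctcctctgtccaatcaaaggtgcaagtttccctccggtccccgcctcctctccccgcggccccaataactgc
Cntn2 (chr1:132542941-132543190, - strand): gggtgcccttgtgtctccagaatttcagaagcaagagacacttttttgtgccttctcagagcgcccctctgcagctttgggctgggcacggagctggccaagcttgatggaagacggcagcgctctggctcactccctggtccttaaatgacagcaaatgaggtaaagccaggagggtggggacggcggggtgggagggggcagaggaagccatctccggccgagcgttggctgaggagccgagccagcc
Nfasc (chr1:132707327-132707576, - strand): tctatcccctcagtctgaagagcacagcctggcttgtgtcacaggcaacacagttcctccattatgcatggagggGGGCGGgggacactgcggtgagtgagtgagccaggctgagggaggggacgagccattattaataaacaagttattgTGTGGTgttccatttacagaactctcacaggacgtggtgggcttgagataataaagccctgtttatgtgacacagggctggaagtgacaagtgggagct
The GC box stood in the Cntnap2 window, 90 bases before the start, in the Nfasc window, farther from its start, and in 32.7% of all 32851 promoters of the table. The Runx core stood in the Nfasc window alone, 99 bases before the start, and in 14.0% of all promoters. The TATA box (TATAAA), the ETS core (CCGGAAG), the estrogen-related receptor element (TCAAGGTCA), the cyclic AMP response element (TGACGTCA) and the E-box (CAGCTG) were in none of the 4 windows. G and C made up 59.6% of the Cntnap2 window, 53.6% of that of Cntn1, 61.2% of that of Cntn2 and 52% of that of Nfasc, beside a median of 52.4% over all promoters. These matches are letters in a window and were not tied to any level below.

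No class annotation of the cells was used, so classes were rebuilt by clustering without the 6 genes and without the node, paranode and myelin genes described below. The genes were divided at random into 2 sets, and cells that fell into a class of the same name by each set were kept. Neurofilament-rich (NF-like) neurons made up 20.3% of the 694 cells, with 54, 17, 41, 22 and 7 cells in preparations 1 to 5. Non-peptidergic (NP-like) neurons made up 20.03%, with 54, 11, 26, 31 and 17 cells, and tyrosine hydroxylase (TH-like) neurons 34.7%, with 71, 13, 58, 67 and 32 cells. Peptidergic (PEP-like) neurons made up 7.64%, with 20, 0, 19, 10 and 4 cells, so that class has 4 preparations. A further 45 cells, of preparations 3 to 5, fell in clusters led by fibroblast genes and were left without a class name. Another 75 cells had unlike names by the 2 sets and entered no class. A first-set cluster of 28 cells led by Sst and Nppb had no class name, so its cells are not among the NP-like cells. In the second set a cluster led by the same genes (31 cells) took the NP name. Levels are the mean, over the cells of a class in a preparation, of RPM, reads scaled to a total of 1000000 per cell. RPM are shares of reads and not molecules, so that fewer RNA molecules of a gene and more RNA of others cannot be told apart.

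The class names were given from marker lists that include Nefh, so the marker levels that follow do not test the names. Nefh, the heavy neurofilament subunit used here to tell myelinated from unmyelinated types, averaged 2901 ± 669 RPM in NF-like cells (SD, n = 5 preparations). It averaged 497 ± 112.3 in PEP-like cells (n = 4), 138.3 ± 33.2 in NP-like cells and 111.4 ± 58.8 in TH-like cells (n = 5 each). The PEP-like class was taken to hold both lightly myelinated and unmyelinated neurons. Part of the first-set PEP-like cluster with the highest Nefh did not enter it, as described below. A mean that includes this class is therefore not one of unmyelinated neurons alone. All 14 NF markers were detected in every neuron class, so detection does not set the classes apart. Their sum was 13803 to 19261 RPM in NF-like cells and at most 4140 RPM in any preparation of the other neuron classes. These markers set the class names, and some also took part in the clustering, so these values only describe the classes. Median reads per cell were 15421 and 15597 in session A, 198656 in session B, and 1526076 and 2573224 in session C.

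Markers of other cells were present in the neuron classes. The summed satellite glia markers ran from 115.5 to 671 RPM over the preparations of NF-like cells, 117.9 to 698 in NP-like, 462 to 2216 in PEP-like and 223.4 to 950 in TH-like cells, with Apoe the most abundant. The summed myelinating Schwann cell markers ran from 185.5 to 415 RPM in NF-like, 295 to 525 in NP-like, 322 to 657 in PEP-like and 1252 to 2010 RPM in TH-like cells, with Pmp22 the most abundant. Mag, which defines myelinating glia, was at 0 in NP-like and PEP-like cells. In PEP-like cells the summed red blood cell markers reached 22276 RPM in 1 preparation, and 2 PEP-like clusters had immune genes such as S100a9, Retnlg and Cd3d among their leading genes. The median satellite glia sum was 197.7 RPM in NF-like and 1293 RPM in PEP-like cells. A further fit used the neurons at or below the median glial marker sum of their class and preparation. The NF-like differences described below were then 2.52 log2 units for Cntnap1, 5.05 for Cntnap2, 2.81 for Cntn1, 3.06 for Nfasc and -2.17 for Ank3, and each passed. That of Cntn2 was 0.60 and did not pass (limma adjusted p = 0.407). The split was made within each class, and the glial sums left in these neurons were not compared between classes. Whether glial RNA entered the differences was not tested.

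NF-like neurons held more Cntnap1, Cntnap2, Cntn1 and Nfasc RNA than the other 3 neuron classes, and less Ank3. Cntn2 was higher in NF-like than in NP-like and PEP-like cells, but its level in TH-like cells was close to that in NF-like cells. Set against the mean of the other 3 classes, 5 of the 6 genes were higher and 1 was lower at an adjusted p below 0.05 by limma with Benjamini-Hochberg adjustment over all 9896 genes tested. Of all genes tested 8.64% were higher, 4.83% were lower and 13.5% were called in either direction. The median difference of the 6 genes was 2.47 on the log2(RPM + 5) scale, beside 0.07 over all genes tested. Fold changes on this scale understate the change of low genes.

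**Figure D1:**
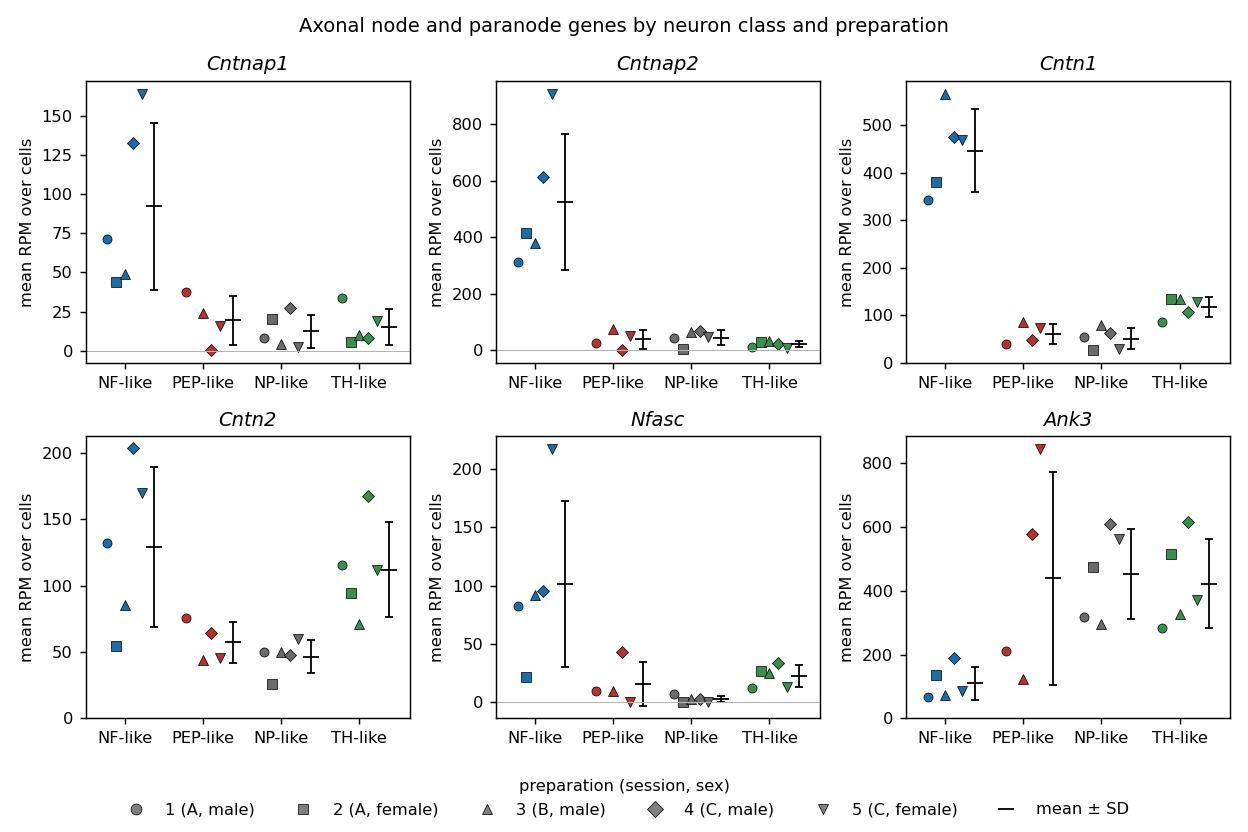
Each panel shows 1 gene, with the mean RPM over cells on a linear axis, the 4 neuron classes along the horizontal axis, 1 point per preparation (shape) and the mean ± SD beside them. The NF-like points of Cntnap1, Cntnap2 and Cntn1 lie above every point of the other classes, those of Cntn2 overlap all 3 classes, and those of Ank3 lie below every NP-like and TH-like point.

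Cntnap1, the paranodal Caspr gene, stood at 71.3, 44.1, 48.9, 132.5 and 164.2 RPM in the NF-like cells of preparations 1 to 5. Its mean was 92.2 ± 53.4 RPM in NF-like cells (n = 5), against 12.3 ± 10.8 in NP-like, 15.1 ± 11.5 in TH-like (n = 5 each) and 19.5 ± 15.6 in PEP-like cells (n = 4). The highest value outside NF-like cells was 37.6 RPM, in the PEP-like cells of preparation 1, so the NF-like preparations did not overlap the others. The difference was 2.35 ± 0.49 log2 units (SE; limma adjusted p = 0.00134), above that of 98.8% of the 9896 genes. Its NF-like excess was 1.47, 1.59 and 1.78 log2 units in preparations 1 to 3 and 3.41 and 3.46 in preparations 4 and 5. With every cell thinned to 3000 reads the difference was 1.58 and no longer passed (limma adjusted p = 0.205).

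Cntnap2, the juxtaparanodal Caspr2 gene, had the largest difference of the 6 genes. It stood at 312, 415, 381, 611 and 907 RPM in the NF-like cells of preparations 1 to 5. The means of the other classes were 44.6 ± 25.04 RPM in NP-like (n = 5), 37.7 ± 32.7 in PEP-like (n = 4) and 20.8 ± 10.3 in TH-like cells (n = 5), and no preparation of them passed 76.3 RPM. The groups did not overlap, and the difference of 4.08 ± 0.49 log2 units (limma adjusted p = 1.27e-06) was a 17-fold change on the RPM + 5 scale and rank 10 of 9896.

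Cntn1, the partner of Caspr at the paranode, stood at 343, 381, 566, 476 and 469 RPM in NF-like cells. Its mean there was 447 ± 87.7 RPM (n = 5), against 118.1 ± 20.7 in TH-like, 51.2 ± 22.2 in NP-like (n = 5 each) and 61.5 ± 21.2 in PEP-like cells (n = 4). The lowest NF-like preparation was above the highest of any other class, which was 135.5 RPM in the TH-like cells of preparation 3. The difference was 2.60 ± 0.24 log2 units (limma adjusted p = 2.99e-08), and within the preparations it varied only from 2.46 to 2.74. This was the smallest spread over preparations among the 6 genes.

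Cntn2, the partner of Caspr2, stood at 132.1, 54.7, 85.7, 203.4 and 169.5 RPM in NF-like cells and at 115.8, 94.3, 71.1, 167.5 and 111.8 RPM in TH-like cells. The 2 classes overlapped, and in preparation 2 the TH-like value was the higher. NP-like cells averaged 46.6 ± 12.8 RPM (n = 5) and PEP-like cells 57.2 ± 15.3 RPM (n = 4), and both also overlapped the NF-like range. The difference from the mean of the 3 classes was 0.85 ± 0.27 log2 units (limma adjusted p = 0.0329). It was positive in 5 of 5 preparations, from 0.12 to 1.28. The call was lost without preparation 1 (0.89, adjusted p = 0.104), 3 (0.91, 0.0821), 4 (0.74, 0.145) or 5 (0.74, 0.0864), and with the preparations not taken as a block (0.80, 0.124).

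Nfasc stood at 82.2, 21.02, 92.01, 95.4 and 217.2 RPM in NF-like cells. NP-like cells held the least of it, with 6.79, 0, 2.51, 2.56 and 0 RPM in preparations 1 to 5. TH-like cells averaged 21.8 ± 9.45 RPM (n = 5) and PEP-like cells 15.7 ± 18.9 RPM (n = 4). The NF-like value of preparation 2 lay below the TH-like value of the same preparation, 26.3 RPM, and below the PEP-like value of 43.2 RPM in preparation 4, while the other NF-like values lay above all of these. The difference was 2.69 ± 0.45 log2 units (limma adjusted p = 0.000147), with the smallest value, 1.06, in preparation 2 and the largest, 4.85, in preparation 5.

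Ank3 ran the other way. It stood at 67.8, 135.98, 73.4, 189.3 and 84.7 RPM in NF-like cells, against 317, 476, 295, 608 and 564 RPM in NP-like cells and 282.1, 516, 328, 617 and 371 RPM in TH-like cells. The NF-like range did not overlap that of either class. PEP-like cells were spread from 122.7 to 844 RPM over 4 preparations and overlapped the NF-like range. The NF-like difference was -1.91 ± 0.22 log2 units (limma adjusted p = 9.11e-07), and it was negative in 5 of 5 preparations, from -1.58 to -2.66. Ank3 held rank 9788 of 9896, near the end of the genes lower in NF-like cells.

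**Figure D2:**
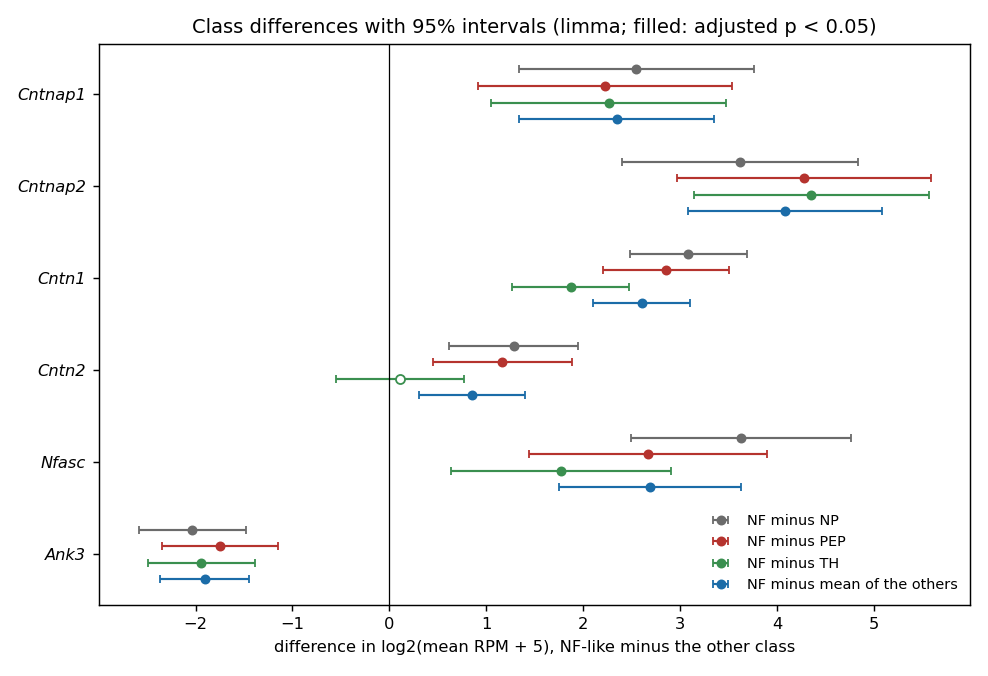
Points give the difference in log2(mean RPM + 5) between NF-like cells and each other class or their mean, with 95% intervals from limma, and filled points passed an adjusted p of 0.05. Every difference but that of Cntn2 from TH-like cells passed, and the Ank3 points alone lie left of 0.

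Against each class separately, NF-like cells were higher in 5 of the 6 genes over NP-like cells, 5 over PEP-like cells and 4 over TH-like cells, where 8.59%, 9.51% and 5.77% of all genes tested were higher. Ank3 was lower in all 3 comparisons, where 6.24%, 3.85% and 5.09% of all genes were lower. The exception was Cntn2 against TH-like cells, with a difference of 0.11 log2 units and a 95% interval from -0.55 to 0.78 (limma adjusted p = 0.918), which still holds a change of either sign. Cntnap2 differed most from TH-like cells (4.36 ± 0.59 log2 units) and Nfasc and Cntn1 most from NP-like cells (3.63 ± 0.55 and 3.08 ± 0.29).

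Some of these pairwise calls were lost when 1 preparation was left out, while their direction was kept. The Cntnap1 difference from PEP-like cells (2.22, limma adjusted p = 0.0214) was lost without preparation 4 (1.42, 0.176) or 5 (2.03, 0.0712). The Nfasc difference from TH-like cells (1.77, adjusted p = 0.0377) was lost without preparation 1 (1.61, 0.173), 3 (1.79, 0.139), 4 (1.87, 0.0626) or 5 (1.30, 0.133). The Cntn2 difference from PEP-like cells (1.16, adjusted p = 0.0274) was lost without preparation 1 (1.30, 0.0682), 3 (1.24, 0.0704), 4 (1.05, 0.125) or 5 (0.97, 0.0944), and that from NP-like cells (1.29, adjusted p = 0.00632) without preparation 4 (1.11, 0.0557). The differences of Cntnap2, Cntn1 and Ank3 from each of the 3 classes still passed with any 1 preparation left out. With cells thinned to 3000 reads, Cntnap1 passed against no class (limma adjusted p = 0.0732 for NP-like, 0.580 for PEP-like, 0.518 for TH-like). Nfasc then passed against NP-like and PEP-like but not TH-like cells (0.0620). Against TH-like cells, a pseudocount of 1 RPM also lost Cntnap1 (0.0554) and Nfasc (0.159), and leaving out the block lost Nfasc (0.0582).

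Among the other 3 classes, the order of levels was TH-like, PEP-like, NP-like for Cntn1, Cntn2 and Nfasc, PEP-like, TH-like, NP-like for Cntnap1, NP-like, PEP-like, TH-like for Cntnap2 and for Ank3. Between TH-like and NP-like cells 3 of the 6 genes passed, all higher in TH-like cells, where 7.96% of all genes were called in either direction: Cntn1 by 1.21 ± 0.29 log2 units (limma adjusted p = 0.0079), Cntn2 by 1.17 ± 0.32 (0.0211) and Nfasc by 1.86 ± 0.55 (0.0341). Between PEP-like and TH-like cells 2 of the 6 passed, Cntn1 (-0.98 ± 0.32, adjusted p = 0.0432) and Cntn2 (-1.05 ± 0.35, 0.0493), where 11.8% of all genes were called. Between PEP-like and NP-like cells none of the 6 passed (limma unadjusted p from 0.118 to 0.731), where 9.19% of all genes were called.

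Calls between these classes were easily lost. NP-like cells here also lack the first-set cluster led by Sst and Nppb, which held more Nfasc than they did. Cntn1 in TH-like over NP-like cells was lost without preparation 2 (1.00, limma adjusted p = 0.07). Cntn2 was lost there without preparation 1 (1.18, 0.101), 2 (1.04, 0.0781) or 4 (1.04, 0.12), and Nfasc without preparation 1 (2.21, 0.0509), 2 (1.67, 0.117), 3 (1.83, 0.158) or 4 (1.74, 0.109). Between PEP-like and TH-like cells the Cntn1 call was lost without preparation 1 (-0.96, 0.131), 2 (-0.88, 0.0751), 3 (-1.08, 0.104) or 4 (-0.93, 0.127), and the Cntn2 call without preparation 1 (-1.21, 0.0976), 2 (-0.94, 0.0758), 3 (-1.17, 0.0948), 4 (-0.98, 0.156) or 5 (-0.98, 0.0971). The directions were kept in each of these fits.

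Counted by cell, Cntn1 was read in 95.7% of NF-like cells (95% Wilson interval 91.03 to 98.04), Cntnap2 in 89.4% (83.2 to 93.4), Cntnap1 in 82.98% (75.9 to 88.3), Nfasc in 82.3% (75.1 to 87.7) and Cntn2 in 79.4% (72.02 to 85.3). All 5 of these genes were read in 85 NF-like cells, which is 60.3% of the class, against 5.39% of TH-like, 1.89% of PEP-like and 0.719% of NP-like cells. Ank3 was read in 83.7% of NF-like, 91.4% of NP-like, 89.6% of TH-like and 56.6% of PEP-like cells. These intervals pool the cells of all preparations as separate draws, so they cover counting error only and leave out the spread between preparations. The Cntnap1 share in NF-like cells ran from 52.9% in preparation 2 to 100% in preparation 4. The libraries had no molecular identifiers.

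Shares of cells depend on depth, and reads can come from free RNA. The 45 fibroblast-led cells, with a median of 148879 reads beside 83098 in NF-like cells, had Cntnap1 reads in 6.67% of cells, Nfasc reads in 4.44%, Cntn2 reads in 11.1%, Cntnap2 reads in 24.4%, Cntn1 reads in 42.2% and Ank3 reads in 57.8%. In PEP-like cells, with a median of 68260 reads, 41.5% had Cntn1 reads and 56.6% had Ank3 reads, and no order is read from these shares. The Ank3 level averaged 58.6 ± 43.7 RPM in fibroblast-led (n = 3) and 439 ± 335 RPM in PEP-like cells (n = 4), whose ranges did not overlap. Cntn1 averaged 176.8 ± 101.1 RPM over the same 3 preparations of fibroblast-led cells, so for this gene those cells cannot serve as a blank.

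At a common depth of 3000 reads, 19.7% of NF-like cells had a Cntnap1 read (1.45% of NP-like, 5.88% of PEP-like and 5.02% of TH-like cells). Nfasc was read in 24.8% of NF-like and 4.18% of TH-like cells, and in 0% of NP-like cells, which allows up to 2.17% of cells with a read at that depth. At full depth 7.91% of NP-like cells had an Nfasc read, so this limit is not one on cells that express the gene. None of the 5 genes other than Ank3 was read in 8.76% of NF-like, 54.4% of TH-like, 68.6% of PEP-like and 70.3% of NP-like cells at that depth. Ank3 was read in 24.8% of NF-like, 63.04% of NP-like, 56.5% of TH-like and 39.2% of PEP-like cells. In wells that held no cell the 6 genes were nearly absent: each had a value in 0 to 5 of 32 empty or medium wells.

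Within the NF-like class the juxtaparanodal pair did not go together. Of the 3 NF-like clusters of the first gene set, 1 was led by Pvalb and Spp1, known from proprioceptors, 1 by Ntng1, Slc5a5 and Calb1, and 1 by Htr3a, Cadps2 and Necab2. Cntnap2 stood at 646, 978, 607 and 1917 RPM in the Pvalb-led cluster in preparations 1 to 4, and at 72.4, 52.4, 147.2 and 65.1 RPM in the Htr3a-led cluster in the same preparations. Cntn2 ran the other way, with 60.3, 46.98, 33.965 and 91.3 RPM in the Pvalb-led and 201.7, 126.4, 100.2 and 435 RPM in the Htr3a-led cluster. Both orders held in 4 of 4 preparations without overlap in this gene set, and preparation 5 had too few cells of either cluster.

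The paranodal genes differed less between these clusters. Cntn1 averaged 330 ± 161.3 RPM in the Pvalb-led (n = 4), 599 ± 174.1 in the Calb1-holding (n = 5) and 393 ± 128.2 RPM in the Htr3a-led cluster (n = 4). Cntnap1 averaged 89.5 ± 53.9, 98.99 ± 69.3 and 60.98 ± 52.5 RPM, and Nfasc 74.7 ± 39.7, 80.8 ± 35.8 and 67.8 ± 33.1 RPM in the same order, all with overlapping ranges. Ank3 was as low in each, with 119.2 ± 95.5, 100.9 ± 60.2 and 121.9 ± 63.1 RPM. In the second gene set Cntnap2 again led in the Pvalb-led cluster, with 1047 ± 721 RPM (n = 4) against 216.2 ± 98.8 (n = 3) and 121.5 ± 72.4 RPM (n = 5) in the other NF-like clusters. The Cntn2 order was less clear in that set: it ran from 31.3 to 109.5 RPM in the Pvalb-led cluster and from 73.7 to 277 RPM in the Htr3a-led cluster, which overlapped. The third NF-like cluster there, with Thy1 and Ntng1 among its leading genes, had the highest mean of Cntn2, 177.8 ± 43.02 RPM (n = 3). The clusters to compare were picked after their values were seen, so no test was made.

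**Figure D3:**
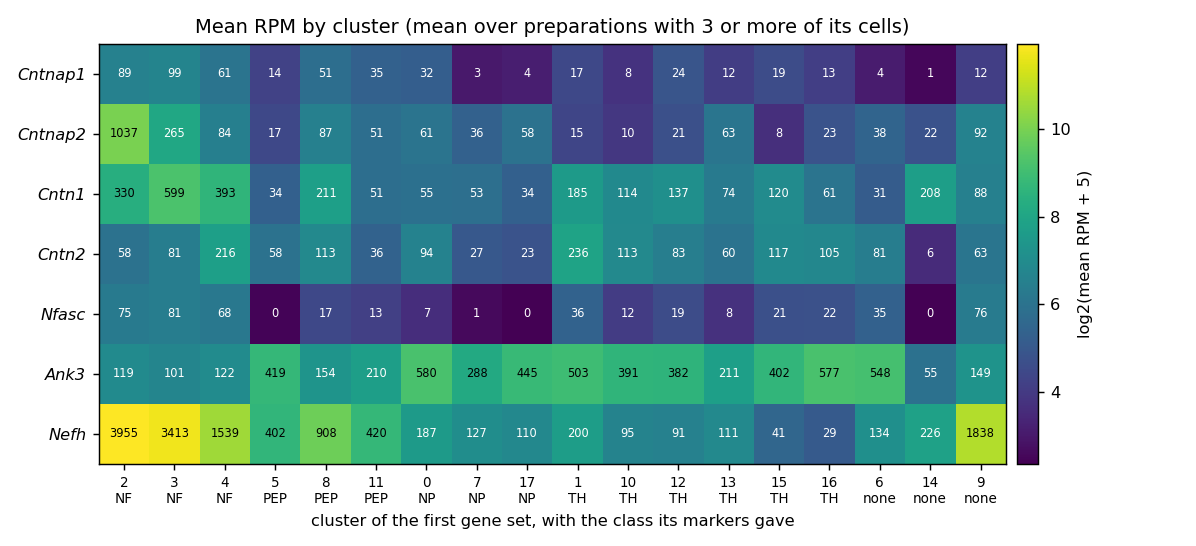
Columns are the 18 clusters of the first gene set with their class name, lines are the 6 genes and Nefh, and each square gives the mean RPM over preparations, coloured by log2(mean RPM + 5). Cntnap2 reaches 1037 RPM in cluster 2, Cntn2 is highest in TH-like cluster 1 (235.8 RPM) and NF-like cluster 4 (215.9 RPM), and Ank3 is lower in the NF-like clusters than in every NP-like and TH-like cluster.

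Outside the NF-like class, the PEP-like cluster 8 of the first gene set was led by Htr3a, Kit, Calca and Fam19a1 and had the highest Nefh of the PEP-like clusters (908 RPM). It held 51.2 RPM of Cntnap1, 210.8 RPM of Cntn1 and 112.95 RPM of Cntn2, each the highest mean of the 3 PEP-like clusters, and 153.5 RPM of Ank3, the lowest of the 3. These means rest on 21 cells, and over 4 preparations Cntnap1 ran from 1.07 to 94.4 RPM and Cntn1 from 52.2 to 418 RPM. The PEP-like clusters of the second gene set held at most 86.4 RPM of Cntn1 and 615 RPM of Nefh, so none of them matched it. In preparation 1 cluster 8 held 10 cells, with a mean of 418 RPM of Cntn1. The 20 cells of the PEP-like class in that preparation averaged 40.4 RPM, so they cannot include all 10. The PEP-like levels and the NF-like differences from them therefore leave out part of this Nefh-high cluster. How far this changed them was not tested. In the TH-like class Cntn2 ran from 59.9 to 235.8 RPM over 6 clusters. Cluster 9 had Cd3d, S100a9 and Retnlg among its leading genes and took the name of mural cells from 4 of 6 raised markers. Its Nefh level was 197.2 RPM in 1 of its 2 preparations and 3478 RPM in the other, and its cells entered no neuron class.

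Over the 19 class-by-preparation means, centred on the preparation, the 5 adhesion genes went together and Ank3 ran against them. Pearson r between pairs of the 5 ran from 0.47 (Cntnap2 and Cntn2) to 0.85 (Cntn1 and Nfasc), and r of Ank3 with each ran from -0.82 to -0.56. With Nefh, r was 0.81 for Cntnap2, 0.76 for Cntnap1, 0.75 for Cntn1, 0.68 for Nfasc, 0.37 for Cntn2 and -0.87 for Ank3. These points share preparations, depth and the class difference itself, and the coefficients are descriptions.

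Within NF-like cells the pattern was weaker. Over the 4 preparations with 15 or more NF-like cells, the median Spearman rho over the 15 pairs was 0.07. It was highest for Cntn1 and Nfasc (0.35) and lowest for Cntnap2 and Cntn2, at -0.31 and negative in 4 of 4 preparations. After thinning to 3000 reads the latter was 0.06. Nfasc had the highest rho with Nefh, 0.45, positive in 4 of 4 preparations and 0.14 after thinning. In TH-like cells the 15 pairs ran from 0.01 to 0.18. Cells of a library share its depth and base composition, and at a few reads per cell weak coefficients are no finding.

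**Figure D4:**
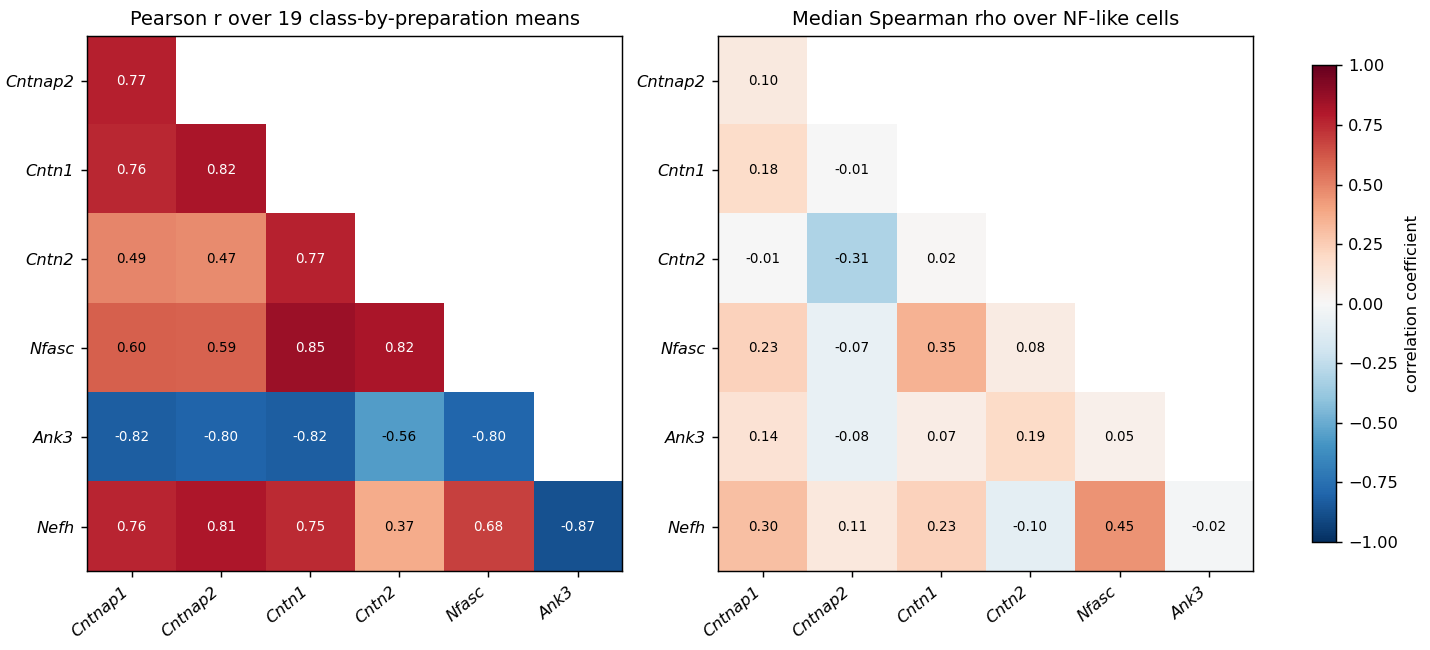
Left, Pearson r between genes over 19 class-by-preparation means of log2(RPM + 5), centred on the preparation. Right, the median over 4 preparations of Spearman rho over NF-like cells. The left panel has Ank3 negative with every other gene, from -0.87 with Nefh to -0.56 with Cntn2, while in the right panel the lowest value is -0.31, for Cntnap2 and Cntn2.

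The genes whose class pattern was most like that of a member differed by member. For Cntnap2 they were Cadps2, Atp5d and Ntng1 (r from 0.91 to 0.92 over 19 means), and for Cntn1 the mitochondrial genes Ndufb10, Cox4i1 and Atp5k (0.95 to 0.98). For Cntn2 they were 1500009L16Rik, Tbx3 and Atp2b2 (0.91 to 0.96), for Nfasc Amph, Pak1 and Ndufa11 (0.89 to 0.91), and for Cntnap1 Resp18, Endod1 and 2310016M24Rik (0.88 each). For Ank3 they were Nbl1, Ptma and Myt1 (0.93 to 0.96).

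Other genes of the node followed the same division in part. Of 13 genes of the node and initial segment 11 were tested, of which 5 were higher in NF-like cells and 2 lower, beside 8.64% and 4.83% of all genes tested. Scn8a, the nodal sodium channel, was higher by 3.03 ± 0.35 log2 units (limma adjusted p = 7.7e-07) and Scn4b, a sodium channel beta subunit, by 3.02 ± 0.36 (1.08e-06). Scn2b, another beta subunit, differed by -2.23 ± 0.49 (limma adjusted p = 0.00227) and Fgf13, which binds sodium channels, by -1.21 ± 0.28 (0.00333). The list's median was 1.19, beside 0.07 over all genes tested.

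Of 16 partners at the paranode and juxtaparanode 15 were tested, with 9 higher and 0 lower, beside the same 8.64% and 4.83% of all genes, and a median of 1.23. Lgi3, a secreted ligand of the ADAM22 family of proteins, differed by 4.07 ± 0.38 log2 units (limma adjusted p = 2.98e-08) and Kcna1, a juxtaparanodal potassium channel, by 3.96 ± 0.37 (3.28e-08). Among 6 other ankyrins and spectrins, 2 were higher: Spnb3 (1.78 ± 0.53, adjusted p = 0.026) and Spnb4, the beta-IV spectrin of the node (1.18 ± 0.35, 0.0236). Ank2, a related ankyrin, differed by -0.40 ± 0.18 and did not pass (adjusted p = 0.161).

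Genes for adhesion along the internode went both ways. Of 4 tested, Nrg1, the axonal signal for myelination, was higher by 1.69 ± 0.40 log2 units (limma adjusted p = 0.00403) and Cadm3 by 1.08 ± 0.33 (0.0271), while Cadm1 differed by -1.57 ± 0.30 (0.00059). None of the 4 tested of 11 other contactin, Caspr and L1 family genes passed (limma unadjusted p from 0.00954 to 0.762, the lowest for L1cam), and the other 7 were below the filter. Of 5 glial partners 2 were tested and neither passed (limma unadjusted p 0.00948 for Epb4.1l2 and 0.0113 for Cadm4).

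**Figure D5:**
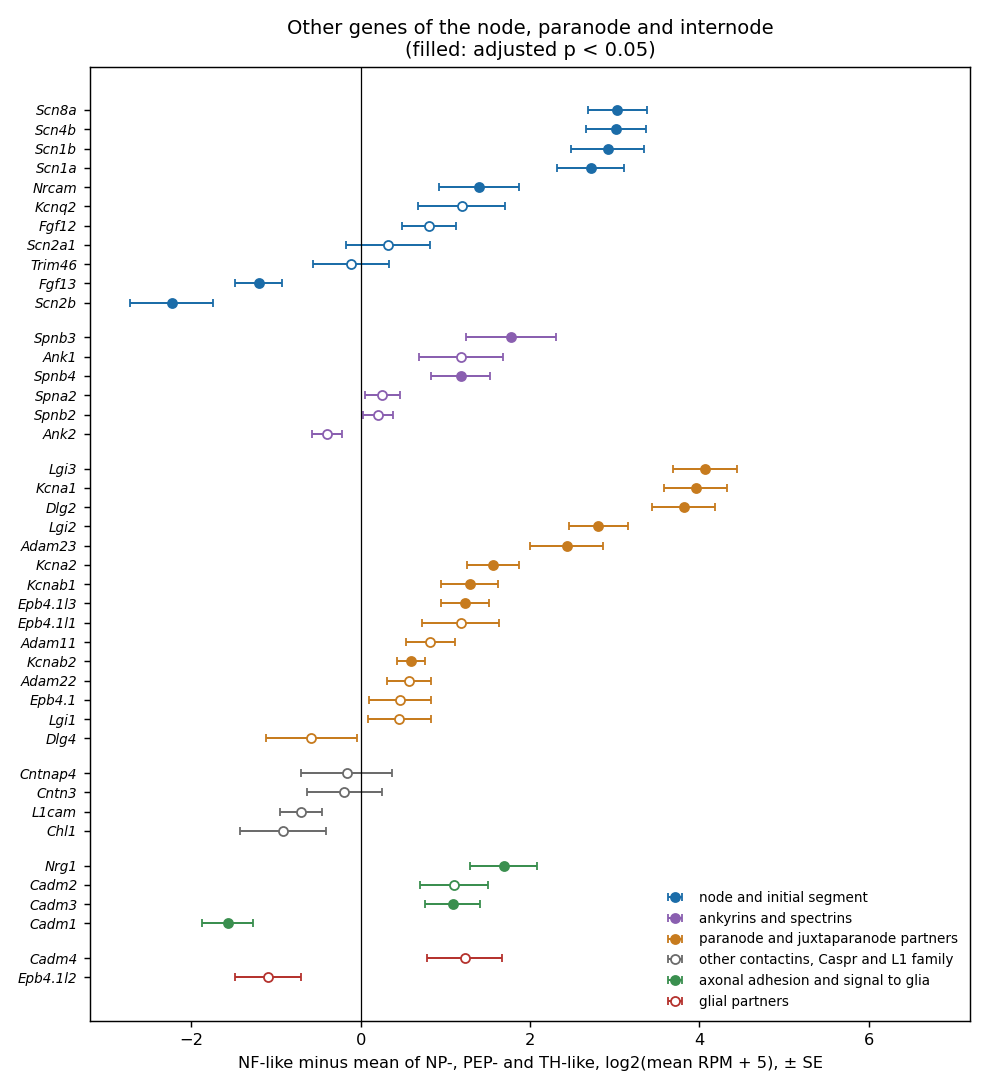
Points give the NF-like minus mean-of-others difference in log2(mean RPM + 5) with its SE for each tested gene of 6 lists, and filled points passed an adjusted p of 0.05 by limma. Lgi3, Kcna1 and Dlg2 lie farthest right, and Scn2b, Cadm1 and Fgf13 are the filled points left of 0.

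By session, none of the 6 genes differed between the cooled session C and sessions A and B at an adjusted p below 0.05 by limma, with sex in the model, where 1.48% of 9686 genes were called. The differences were 0.73 log2 units for Cntn2, 0.58 for Cntnap2, 0.51 for both Ank3 and Cntnap1, 0.44 for Nfasc and 0.05 for Cntn1, beside a median of 0.10 over all genes. The Cntn2 difference had a 95% interval from 0.03 to 1.44 and an unadjusted p of 0.0434, the only one of the 6 below 0.05 (limma adjusted p = 0.256). That of Cntn1 had an interval from -0.64 to 0.74. Some directions were not stable: the Cntnap1 difference was -1.16 with cells thinned to 3000 reads, and that of Ank3 was -0.29 without preparation 4 and 1.12 without preparation 2 or 5. The fit used the 3 classes found in all 5 preparations, with 2 residual degrees of freedom, and session, cooling and depth cannot be told apart.

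The size of the NF-like excess over NP-like and TH-like cells was also set against session. For Cntnap1 it was 1.33 ± 0.51 log2 units larger in session C (limma unadjusted p = 0.0418, adjusted p = 0.649) and for Nfasc 1.43 ± 0.86 larger (unadjusted p = 0.15). The Cntnap1 value was 0.77 without preparation 2 or 5, 2.09 without preparation 4 and 0.40 with thinned cells. The Nfasc value was -0.12 without preparation 2 or 5, 3.502 without preparation 4 and 2.55 with thinned cells. For Ank3 the difference of differences was -0.02, with a 95% interval from -1.18 to 1.14. None of the 6 passed the adjusted threshold by limma, and 0% of all genes did, while 716 of them were below an unadjusted p of 0.05. The order of NF-like above the mean of the other classes, or below it for Ank3, was the same in every preparation for each of the 6 genes.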

How the data were processed

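Single cells were picked by hand and made into 5′-end tagged libraries, per the labels' protocols. The authors mapped the reads with Bowtie to build mm9, per the submitters' processing notes, and deposited RPM, reads scaled to a total of 1000000, for 25333 entries in 864 wells. No molecular identifiers were counted in the values used here. In 4 deposited columns all values were whole, and they were treated as a score of unknown scale and used only to count control wells. Whole reads were recovered from the smallest step of the RPM in 841 columns and not claimed in 23, and 99.5% of recovered values were whole within 0.1.

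The values of entries with the same gene name were added up, and 1217 repeat elements were dropped. Wells with several cells by their label took no part, and no doublet caller was run. Cells were clustered (scanpy 1.11.5, Leiden, resolution 2, 600 variable genes and 15 principal components) in each of 2 random sets of the genes, with 69 genes held out, into 18 and 17 clusters, after centring log2(RPM + 100) on the session. Clusters were named by the marker list with the largest share of genes raised by 0.5 log2 units, and 619 of 694 cells had like names. Genes outside the held-out lists were tested with classes from the set they did not belong to. The members, lists and rules were chosen with earlier results of these data known.

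Mean RPM per class and preparation (3 or more cells) was tested as log2(RPM + 5) with limma 3.58.1 (trend, robust), over genes that averaged at least 5 RPM, with the preparation as a block since classes of a preparation share its cells, and with Benjamini-Hochberg adjustment over all genes tested. The named genes are the 6 members, from each list the 2 genes with the largest called difference in each direction, and the 3 most correlated genes per member. In data simulated on the class comparison of 9896 genes, limma recovered 12% of 100 genes changed by 1 log2 unit and 55% of 100 changed by 2 units, and 1.47% of its calls were unchanged genes. Alternatives used other pseudocounts, filters, thinning, clusters and left-out preparations, and edgeR 4.0.16 on the recovered reads.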

Additional observations from a re-analysis of the deposited data

Results flagged for a closer look

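The 33 wells labelled as holding more than 1 cell took no part in the comparisons and held reads of all 6 genes. Their mean levels were 57.7 RPM for Cntnap1, 50.8 for Cntnap2, 69.4 for Cntn1, 37.97 for Cntn2, 53.9 for Nfasc and 138.9 for Ank3. Cntn1 had a value in 16 of these wells, Ank3 in 20 and Cntnap1 in 9, against 2, 5 and 1 of the 32 empty or medium wells. In the 24 control wells with recovered reads, Nfasc had 0 reads, Cntnap2 had 1 and Cntn2 had 10. The types of the cells in these wells are not labelled. Across the 24 sets of preparation values of a gene in a class, no single preparation stood apart from the others by Dixon's criterion.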

How the results depend on the processing

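The NF-like differences of Cntnap2, Cntn1, Nfasc and Ank3 kept their direction and passed in each of the 21 alternatives to the comparison with the mean of the other classes, from 3.20 to 5.05, 1.82 to 3.67, 1.80 to 4.60 and -2.17 to -1.18 log2 units. Cntnap1 passed in 20, failing with cells thinned to 3000 reads, and Cntn2 in 8. None of these 6 differences changed sign. The cause of these losses was not tested. The 21 alternatives are not all distinct. Leaving out preparation 2 and keeping the preparations with all 4 classes were the same fit. Leaving out preparation 5 and requiring 10 or more cells per class and preparation gave the same differences. Another alternative compared upper and lower Nefh groups of cells, and another left PEP-like cells out of the mean.

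Differences that had not passed did change sign under some alternatives, and none of them passed after the change; the cause was not tested. With thinned cells, session C minus A and B became -1.16 for Cntnap1, PEP-like minus NP-like -0.12 for Cntn1 and -0.84 for Cntn2, PEP-like minus TH-like -1.98 for Cntnap2 and 0.24 for Ank3, TH-like minus NP-like 0.12 for Cntnap2, and the class difference by session -0.10 for Cntn1. With a pseudocount of 1 RPM, PEP-like minus TH-like became -0.20 for Cntnap1 and -0.35 for Cntnap2. In neurons at or below the median glial marker sum, NF-like minus TH-like became -0.077 for Cntn2 and PEP-like minus TH-like -1.63 for Cntnap2. With no sex covariate the session difference of Cntn1 was -0.00075. With 1 preparation left out, session C minus A and B ran from -0.094 to 0.21 for Cntn1 and -0.29 to 1.12 for Ank3, and the class difference by session from -0.12 to 3.502 for Nfasc and -0.54 to 0.37 for Ank3. NF-like minus TH-like ran from -0.0065 to 0.32 for Cntn2. PEP-like minus NP-like ran from -0.12 to 1.24 for Cntnap1, -1.05 to 0.37 for Cntnap2, -0.041 to 0.41 for Cntn1, -0.022 to 0.28 for Cntn2 and -0.61 to 0.037 for Ank3. PEP-like minus TH-like ran from -0.30 to 0.55 for Cntnap1, -0.49 to 0.95 for Cntnap2 and -0.64 to 0.19 for Ank3, and TH-like minus NP-like from -0.068 to 0.69 for Cntnap1 and -0.16 to 0.030 for Ank3.

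The count of all genes called in that comparison, 1333, became 525 in sessions B and C only, 576 after thinning each cell to 3000 reads, 829 by edgeR with TMM, 788 by edgeR with DESeq2 size factors, 5305 with the mean of log2 values and 686 between the upper and lower Nefh groups of each preparation. With no replicate block, 5 of the 6 genes passed and the Cntn2 difference was 0.80 (limma adjusted p = 0.124). By session, 1.48% of genes were called, and the count became 51 with a pseudocount of 20 RPM, 0 with no filter on low values, 90 with thinned cells and 0 to 692 with 1 preparation left out, and none of the 6 genes passed in any of these. The planned limit of 100 RPM of glial markers left 37 neurons and was not run; the neurons at or below the median glial marker sum, the preparations with all 4 classes and all alternatives to the pairwise and class-by-session comparisons were chosen after seeing the data. With a median of 15421 reads per cell in preparation 1, low levels there rest on reads in few cells.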
